A study of Mus musculus with 10 samples.

Results

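The 9 genes described here encode the core of polyamine metabolism: Odc1, Amd1, Srm, Sms, Sat1, Smox, Oaz1, Oaz2 and Azin1. They were chosen by symbol from a table of 21898 genes, and all 9 had enough reads to be tested, among 11403 tested genes. Polyamines are small cations that bind nucleic acids and are needed by dividing cells. Ornithine decarboxylase (Odc1) makes putrescine, and spermidine synthase (Srm) and spermine synthase (Sms) extend it with aminopropyl groups that S-adenosylmethionine decarboxylase (Amd1) supplies. Spermine oxidase (Smox) and spermidine/spermine acetyltransferase (Sat1) run the path backwards. Antizymes (Oaz1, Oaz2) bind the decarboxylase, send it to the proteasome and reduce polyamine uptake, and the antizyme inhibitor (Azin1), an inactive relative of the decarboxylase, holds the antizymes off. Activated T cells are known to raise this pathway as they begin to divide.

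Messenger RNA was sequenced from CD8+ T cells that had been taken from the spleens of wild-type mice and cultured for 5 days. The NAC group had N-acetylcysteine, a thiol used as an antioxidant, at 10 mM in its medium, and the control group had normal medium. Each group has 5 libraries, numbered 1 to 5, and holds 13.3 to 17.71 M reads a library. Separate animals or cultures are not named in the labels, so the tests rest on the variation among the sequenced libraries alone, and that may be technical. Bulk values cannot tell fewer cells of a type from less RNA per cell.

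The libraries numbered 1 and 2, whether NAC or control, differ from those numbered 3 to 5 and go against their cell label, so each result is given for all libraries and within each set. The helper T cell gene Cd4 was at 485 and 521 CPM (read counts scaled to TMM-normalized library totals) in NAC 1 and NAC 2 and at 467 and 464 CPM in control 1 and control 2. In libraries 3 to 5 it reached at most 2.76 CPM with NAC and 1.998 CPM in control. The CD8 gene Cd8a was at 238 and 270.3 CPM in NAC 1 and NAC 2 and at 201 and 212 CPM in control 1 and control 2, against 649 to 666 and 487 to 522 CPM in libraries 3 to 5. Summed over the 3 CD4 T cell markers examined (Cd4, Zbtb7b and Foxp3), libraries 1 and 2 held 550.4 to 594 CPM with NAC and 527 to 534 CPM in control, and libraries 3 to 5 held 30.1 to 33.4 and 19.4 to 21.9 CPM. Most of the sum was Cd4 in libraries 1 and 2 and Zbtb7b (17.6 to 29.8 CPM) in libraries 3 to 5. Foxp3 was at 1.3 and 1.57 CPM in NAC 1 and NAC 2, below the 4.52 and 4.24 CPM of control 1 and control 2. The 4 B cell markers summed to 10.7 to 11.7 CPM with NAC and 2.32 to 3.15 CPM in control in libraries 1 and 2, and to 11.4 to 13.3 and 5.82 to 8.81 CPM in libraries 3 to 5. Sums over myeloid, NK, erythroid and platelet markers stayed at or below 1.57 CPM in every library. The part of these markers in the results below was not tested.

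In the polyamine pathway the entry enzyme gene Odc1 was 1.54-fold lower with NAC and the spermine oxidase gene Smox 1.72-fold higher. Both changes were seen in each set of libraries. The antizyme genes Oaz1 and Oaz2 were higher with NAC in libraries 1 and 2, while in libraries 3 to 5 Oaz1 was lower and Oaz2 had a log2 change of 0.02 that did not pass. By edgeR's quasi-likelihood test over all libraries, 1 of the 9 genes was higher, against 6.69% of all tested genes, 1 was lower, against 4.88%, and 7 did not pass an adjusted p of 0.05. The 2 called genes of 9 stand beside 11.6% of all tested genes called in either direction. That fit had no term for the library set. With such a term Srm and Sms were lower too, and more of all tested genes were called.

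Within libraries 1 and 2, 3 of the 9 genes were higher with NAC (32.2% of all tested genes were) and 6 were lower (28.3%), so all 9 were called where 60.5% of all tested genes were. Within libraries 3 to 5, 1 was higher (15% of all tested genes) and 3 were lower (14%), against 29% called in either direction. The NAC and control values of all libraries did not overlap for Smox, the 1 gene wholly higher (8.62% of all tested genes), and for Odc1, the 1 gene wholly lower (7.75%). Values did not overlap within libraries 1 and 2 for 3 genes higher (39.3% of all tested genes) and 6 lower (34.8%). Within libraries 3 to 5 this held for Amd1 and Smox, higher (27.1%), and for Odc1, Srm, Sms and Oaz1, lower (27.5%). These shares of the 9 genes are read against a background that is itself high within the sets. The median log2 change of the 9 genes was -0.14, against 0.01 for all tested genes. It was -0.32 in libraries 1 and 2 (0.04 for all tested genes) and -0.06 in libraries 3 to 5 (0.0041). Over all libraries, called genes split into 763 higher and 556 lower. That split became 881 and 396 with library size alone as the scale and 1047 and 350 with upper quartile factors.

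**Figure D1:**
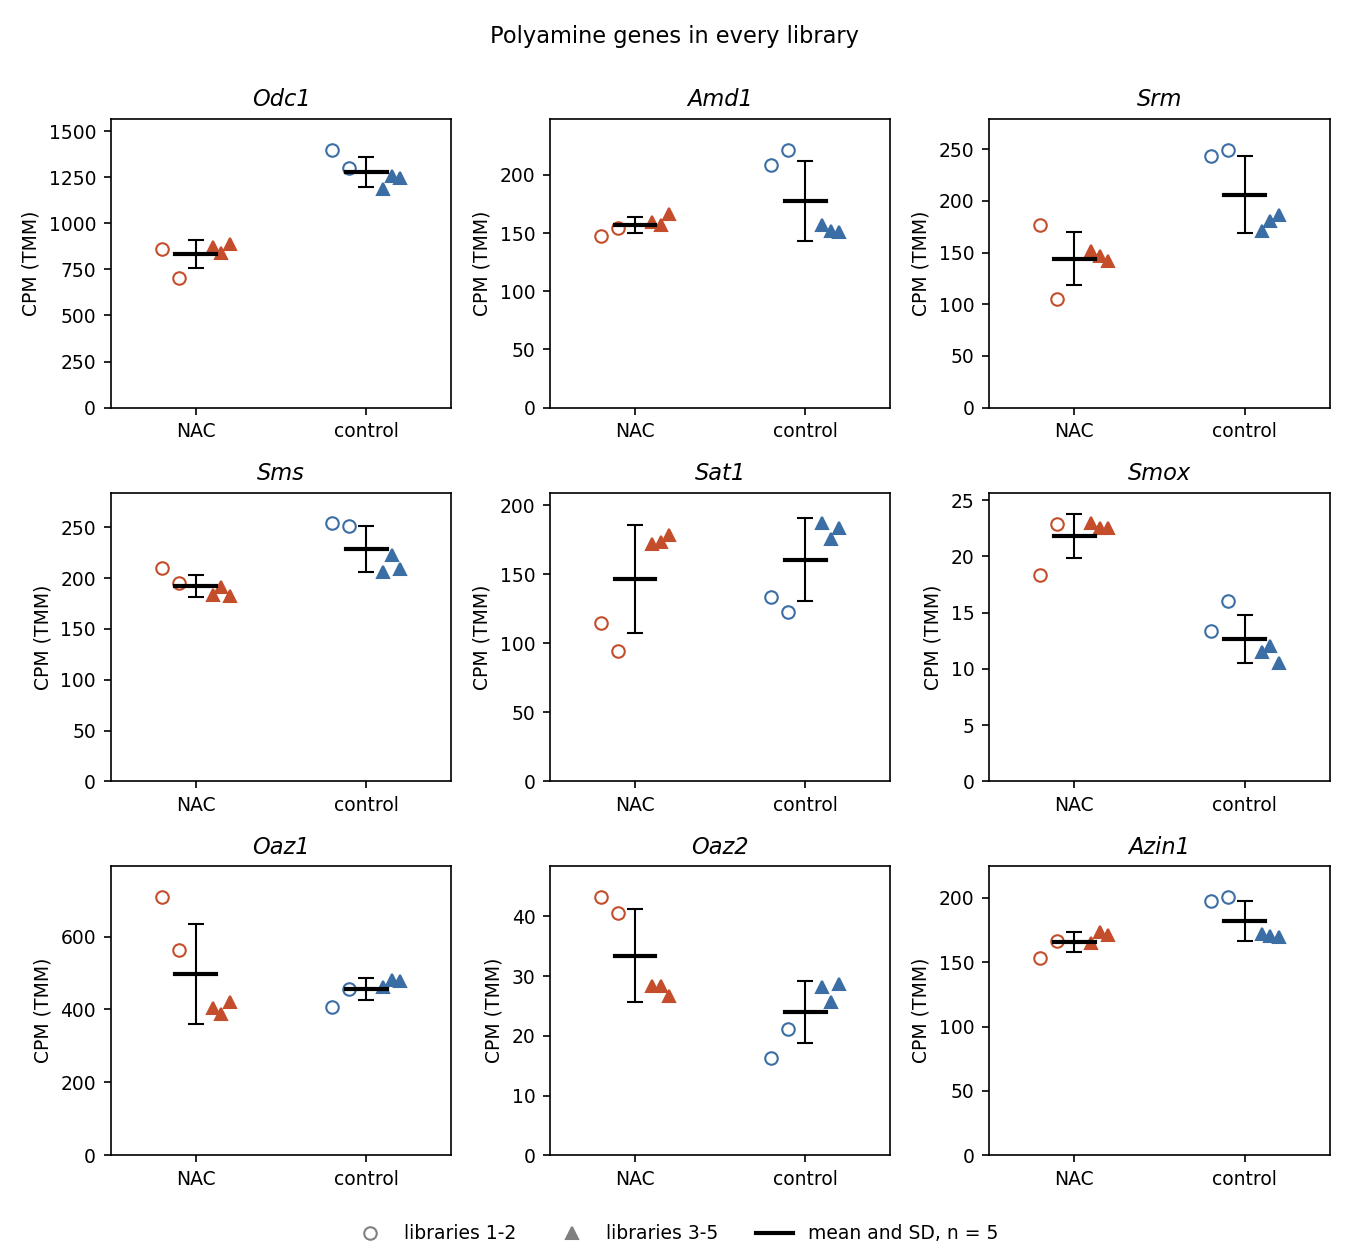
CPM of each of the 9 genes in every library, NAC left and control right; open circles are libraries 1 and 2, triangles are libraries 3 to 5, and black bars are the mean and SD of the 5 libraries. The NAC and control points of Odc1 and of Smox lie apart in both sets, while the open circles of Oaz1 and Oaz2 part and the triangles of Oaz2 overlap.

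On the FPKM scale of the deposited table, which divides by gene length and so allows genes to be compared, Odc1 had the highest mean of the 9. Odc1 averaged 247 ± 18.2 FPKM with NAC and 371 ± 26.9 FPKM in control (SD, n = 5 each), and ranked 114th by mean FPKM among the 11403 tested genes. Oaz1 followed with 196 ± 53.3 FPKM with NAC and 176 ± 10.1 FPKM in control, and Srm with 91 ± 14.8 and 128 ± 24.9 FPKM. In NAC 1 and NAC 2 Oaz1 was above Odc1 (274 against 250 FPKM and 230 against 216 FPKM). Odc1 was highest in every other library. Sat1 averaged 53.4 ± 13.8 FPKM with NAC and 57.1 ± 9.94 FPKM in control, and Amd1 44.8 ± 2.16 and 49.7 ± 10.4 FPKM. Their order depended on the set. In libraries 3 to 5 Sat1 was at 62.4 to 64.4 FPKM with NAC and 61.8 to 66.2 FPKM in control. These values were above every Amd1 value there. In each of libraries 1 and 2 Sat1 was below Amd1, but only just in NAC 1 (41.1 against 41.2 FPKM). Sms (32.3 ± 1.89 FPKM with NAC, 37.6 ± 4.22 FPKM in control) was above Azin1 (26.8 ± 1.57 and 28.8 ± 2.89 FPKM). Oaz2 averaged 11.3 ± 2.69 FPKM with NAC and 7.91 ± 1.64 FPKM in control. Smox was lowest, at 5.67 ± 0.58 FPKM with NAC and 3.22 ± 0.586 FPKM in control. The levels of the 9 genes thus spanned from the abundant decarboxylase to a scarce oxidase, and the gene called higher was the scarcest of them.

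Odc1 encodes the enzyme that commits ornithine to polyamines (ENSMUSG00000011179; chr12:17544794-17551505, plus strand, GRCm38). It was at 859.8, 703, 871, 841 and 889.7 CPM in NAC 1 to NAC 5. In control 1 to control 5 it was at 1399.6, 1302, 1186, 1259 and 1246 CPM. Every NAC library lay below every control library. The mean was 833 ± 74.8 CPM with NAC and 1279 ± 79.3 CPM in control (SD, n = 5 each), a log2 change of -0.62 ± 0.09 (SE; edgeR adjusted p = 0.00365). Libraries 1 and 2 gave -0.79 ± 0.09 (adjusted p = 1.01e-05), and libraries 3 to 5 gave -0.50 ± 0.07 (adjusted p = 0.000386). The difference of these changes, -0.29 ± 0.12, did not pass (adjusted p = 0.0686). It passed with library size as the scale (-0.31, adjusted p = 0.0239) and with no filter (-0.33, adjusted p = 0.0253). The difference was -0.43 without NAC 1 and -0.15 without NAC 2. These fits leave 1 NAC library in that set, so its spread is not measured. The changes within the sets were tested with 1 spread shared by all libraries. The coefficient of variation of Odc1 was 14.2% in NAC 1 and NAC 2, against 2.8% in NAC 3 to NAC 5. Of the 100-base runs in Odc1 transcripts of GENCODE M21, 10.1% also occur in transcripts of other genes, so a part of its reads may be shared with them.

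The bases before the annotated starts of Odc1, Sms and Smox are shown because Odc1 and Smox moved in both sets of libraries, and because the Sms and Smox windows hold a searched motif. Windows of 250 bases before to 50 after the start were available from RefSeq (GRCm38.p6) for 7 of the 9 genes, with 8 windows in all, Sms having 2; Srm and Azin1 are named only. The motifs searched on both strands were CACGTG, the E-box read by MYC and MAX, TGACNNNGC, the core of the antioxidant response element, and TGATGNAA, the core of the ATF4 site. CACGTG was in 1 of the 8 windows and in 7.15% of all 32851 windows of the same length. TGACNNNGC was in 2 of the 8, those of Smox and Oaz1, and in 12.4% of all, and TGATGNAA was in 0 of the 8 and in 3.97% of all. No 2 of these matches overlap. The 250 bases of Odc1 were 80% G or C, those of Smox 68% and those of the first Sms window 47.2%, against a median of 52.4% over all windows. Capitals below mark a match, 193 bases before the RefSeq start in Smox and 196 in Sms, and the Odc1 window has none. Bases outside the windows, such as those more than 50 after a start, were not searched. The Oaz1 match, 13 bases before its RefSeq start, is not shown. RefSeq and GENCODE M21 starts differ for Smox and Odc1. The Smox bases shown lie wholly inside the GENCODE span of Smox, which starts at 131491496. The last of the Odc1 bases lie inside the GENCODE span of Odc1, which starts at 17544794.
Odc1, chr12:17544623-17544872, plus strand: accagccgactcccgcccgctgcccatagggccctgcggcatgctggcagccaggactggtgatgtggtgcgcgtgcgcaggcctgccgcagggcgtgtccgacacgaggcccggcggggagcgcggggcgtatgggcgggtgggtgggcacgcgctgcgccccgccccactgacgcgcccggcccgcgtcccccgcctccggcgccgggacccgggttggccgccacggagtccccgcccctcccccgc
Smox, chr2:131491612-131491861, plus strand: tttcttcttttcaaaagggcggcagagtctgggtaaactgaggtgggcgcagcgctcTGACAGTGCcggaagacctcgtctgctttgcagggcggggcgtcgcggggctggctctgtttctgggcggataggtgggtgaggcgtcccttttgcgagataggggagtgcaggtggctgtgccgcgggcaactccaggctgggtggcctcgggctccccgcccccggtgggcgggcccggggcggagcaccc
Sms, first window, chrX:157492288-157492537, minus strand: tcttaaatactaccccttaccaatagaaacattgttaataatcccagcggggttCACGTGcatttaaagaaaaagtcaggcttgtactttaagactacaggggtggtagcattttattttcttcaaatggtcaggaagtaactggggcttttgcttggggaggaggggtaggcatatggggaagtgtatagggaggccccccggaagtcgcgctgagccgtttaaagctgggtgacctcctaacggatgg

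Of the enzymes that build spermidine and spermine, Sms was lower with NAC in both sets, and Srm and Amd1 were lower in libraries 1 and 2. Srm, which makes spermidine (ENSMUSG00000006442; chr4:148591503-148594993, plus strand, GRCm38), was at 177, 105, 152, 146 and 142 CPM in NAC 1 to NAC 5. Control 1 to control 5 had 243, 249.7, 171, 181 and 186 CPM. NAC 1 lay above control 3, so the groups overlapped over all libraries, but they did not overlap within either set. The log2 change of Srm was -0.52 ± 0.15 and did not pass (SE; edgeR adjusted p = 0.0539). With the library number as a block it was -0.51 and passed (adjusted p = 0.0491), as it did without NAC 1 (-0.60, adjusted p = 0.0346). In libraries 1 and 2 the change was -0.81 ± 0.16 (adjusted p = 0.000717), where NAC 1 and NAC 2 differed from each other with a coefficient of variation of 36.1%. This change was -1.23 without NAC 1 and -0.48 without NAC 2, fits that leave 1 NAC library in that set and do not measure its spread. In libraries 3 to 5 it was -0.29 ± 0.13 (adjusted p = 0.113) with the spread of all libraries, but a fit to libraries 3 to 5 alone, whose spread holds neither NAC 1 nor NAC 2, gave the same -0.29 with an adjusted p of 3.17e-08. Without NAC 1 or NAC 2 the change in libraries 3 to 5 was also -0.29. The sets differed by -0.52 ± 0.21, which did not pass (adjusted p = 0.0582). This difference did pass with DESeq2's size factors (adjusted p = 0.0497) and with library size as the scale (0.0362). It was -0.94 without NAC 1 and -0.19 without NAC 2.

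Sms, which adds the last aminopropyl group to make spermine (ENSMUSG00000071708; chrX:157443855-157492287, minus strand, GRCm38), was at 209.9, 195, 183, 191 and 182 CPM in NAC 1 to NAC 5. The control libraries had 254, 251, 206, 223 and 209 CPM in the same order of numbers. NAC 1 lay just above control 5 and control 3, and all other NAC libraries below every control. The mean was 192 ± 11.3 CPM with NAC and 229 ± 22.6 CPM in control (SD, n = 5 each). Its log2 change of -0.25 ± 0.09 did not pass (SE; edgeR adjusted p = 0.0835), but passed with the block (-0.25, adjusted p = 0.0445). Libraries 1 and 2 gave -0.32 ± 0.07 (adjusted p = 0.00115), and libraries 3 to 5 gave -0.20 ± 0.05 (adjusted p = 0.016). The call in libraries 3 to 5 ended without NAC 3 (adjusted p = 0.0673), NAC 5 (0.0677) or control 4 (0.0861) and with upper quartile factors (0.05455). The changes in the sets differed by -0.12 ± 0.09, which did not pass (adjusted p = 0.289). They differed by -0.16 without NAC 1, which leaves 1 NAC library in libraries 1 and 2. Of the 100-base runs of Sms, 16.4% also occur in the pseudogene Sms-ps.

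Amd1, whose product supplies the aminopropyl groups (ENSMUSG00000075232; chr10:40287458-40302186, minus strand, GRCm38), was at 147, 154, 159.7, 157 and 166 CPM in NAC 1 to NAC 5. It was at 209 and 222 CPM in control 1 and control 2 and at 151 to 157 CPM in control 3 to control 5. The 5 NAC libraries and control 3 to 5 lay close together, and control 1 and control 2 stood above them. Over all libraries the log2 change was -0.18 ± 0.12 (SE; edgeR adjusted p = 0.352). It was -0.51 ± 0.07 in libraries 1 and 2 (adjusted p = 2.13e-05), against 0.07 ± 0.05 in libraries 3 to 5 (adjusted p = 0.322), and these changes differed (-0.59 ± 0.08, adjusted p = 0.000191). Of the 100-base runs of Amd1, 64.2% also occur in its near-identical copy Amd2, so its value is uncertain where reads could be split. Amd2 itself averaged 1.86 ± 0.269 CPM with NAC and 2.52 ± 0.652 CPM in control (SD, n = 5 each).

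**Figure D2:**
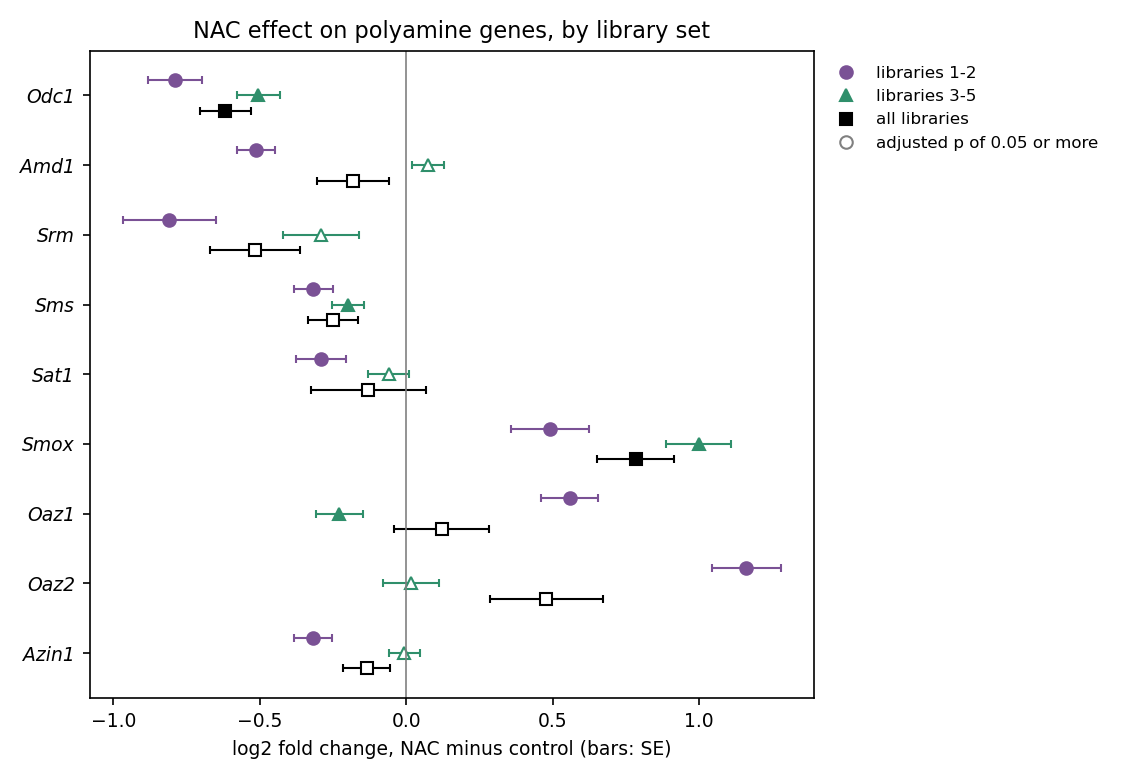
Log2 fold change (NAC minus control) of each of the 9 genes with its SE, for libraries 1 and 2 (circles), libraries 3 to 5 (triangles) and all libraries (squares); open symbols did not pass an adjusted p of 0.05. Odc1 and Smox are filled in all 3 fits, and Oaz1 has filled symbols on both sides of 0.

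Of the back-conversion genes, Smox was higher with NAC in both sets, while Sat1 was called only in libraries 1 and 2, where it was lower. Smox, which oxidizes spermine to spermidine and releases hydrogen peroxide (ENSMUSG00000027333; chr2:131491496-131525922, plus strand, GRCm38), was at 18.3, 22.9, 22.9, 22.5 and 22.5 CPM in NAC 1 to NAC 5. Control 1 to control 5 had 13.3, 16.01, 11.5, 12 and 10.5 CPM. Every NAC library lay above every control library, and 4 of the NAC libraries lay within 1 CPM of each other. The mean was 21.8 ± 1.96 CPM with NAC and 12.7 ± 2.12 CPM in control (SD, n = 5 each), a log2 change of 0.78 ± 0.13 (SE; edgeR adjusted p = 0.00709). These values rest on 150 to 401 reads a library. The change was 0.49 ± 0.13 in libraries 1 and 2 (adjusted p = 0.00615), against 0.998 ± 0.11 in libraries 3 to 5 (adjusted p = 4.31e-05). The call in libraries 1 and 2 ended without control 1 (adjusted p = 0.0729) and in a fit to these libraries alone (0.0632), and without NAC 2 the change was 0.32 (adjusted p = 0.0494).

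The rise of Smox was larger in libraries 3 to 5 than in libraries 1 and 2 by the test of the difference (-0.51 ± 0.17 SE, libraries 1 and 2 minus 3 to 5; edgeR adjusted p = 0.0313). That call ended without NAC 1 (adjusted p = 0.0935), NAC 3 (0.0641), NAC 4 (0.0575), NAC 5 (0.0562), control 2 (0.155) or control 5 (0.0792). None of the 100-base runs of Smox occur in transcripts of another gene, and the same holds for Srm.

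Sat1, whose product acetylates spermidine and spermine for export or oxidation (ENSMUSG00000025283; chrX:155213132-155216449, minus strand, GRCm38), had its lower values in libraries 1 and 2 of both groups. It was at 115 and 94.8 CPM in NAC 1 and NAC 2 and at 172 to 178 CPM in NAC 3 to NAC 5. Control 1 and control 2 had 134 and 123 CPM, and control 3 to control 5 had 176 to 187 CPM. Over all libraries its log2 change was -0.13 ± 0.20 (SE; edgeR adjusted p = 0.694). It was -0.29 ± 0.09 in libraries 1 and 2 (adjusted p = 0.0106), against -0.06 ± 0.07 in libraries 3 to 5 (adjusted p = 0.55). The call in libraries 1 and 2 ended without control 1 (adjusted p = 0.1001), with upper quartile factors (0.0921) and in a fit to these libraries alone (0.105), and without NAC 2 the change was -0.16 (adjusted p = 0.0282). The test of the difference did not pass for Sat1 (-0.23 ± 0.11, adjusted p = 0.111). The difference was -0.37 without NAC 1, which leaves 1 NAC library in libraries 1 and 2.

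The regulators of the decarboxylase protein differed between the sets. Oaz1, the main antizyme gene (ENSMUSG00000035242; chr10:80826656-80829290, plus strand, GRCm38), was at 708 and 562 CPM in NAC 1 and NAC 2 and at 405, 387 and 421 CPM in NAC 3 to NAC 5. It was at 407 and 455 CPM in control 1 and control 2 and at 461, 482 and 478 CPM in control 3 to control 5. NAC lay above control in libraries 1 and 2 and below it in libraries 3 to 5, with no overlap within either set. Over all libraries the log2 change was 0.12 ± 0.16 (SE; edgeR adjusted p = 0.655), and -0.04 without NAC 1 (adjusted p = 0.851). It was 0.56 ± 0.10 in libraries 1 and 2 (adjusted p = 0.000287), against -0.23 ± 0.08 in libraries 3 to 5 (adjusted p = 0.0469), and the difference passed (0.79 ± 0.13, adjusted p = 0.0004). These tests share 1 spread, though the coefficient of variation of Oaz1 was 16.2% in NAC 1 and NAC 2 and 4.18% in NAC 3 to NAC 5.

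The lower Oaz1 of libraries 3 to 5 was a borderline call. It ended without any library other than NAC 1 and NAC 2 (adjusted p 0.0582 to 0.161), with library size as the scale (0.0677), with upper quartile factors (0.117) and with a filter of 1 CPM in 5 libraries (0.0554). A fit to libraries 3 to 5 alone called it (-0.23, adjusted p = 1.07e-07). Of the 100-base runs of Oaz1, 14.5% also occur in the pseudogene Oaz1-ps.

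Oaz2, a second antizyme gene (ENSMUSG00000040652; chr9:65668001-65690300, plus strand, GRCm38), was at 43.2 and 40.6 CPM in NAC 1 and NAC 2, against 16.3 and 21.2 CPM in control 1 and control 2. Libraries 3 to 5 had 28.4, 28.4 and 26.6 CPM with NAC and 28.1, 25.7 and 28.7 CPM in control. The groups were far apart in the first set and overlapped in the second. Oaz2 was 2.24-fold higher with NAC in libraries 1 and 2 (log2 change 1.16 ± 0.12 SE; edgeR adjusted p = 3.26e-06). Its change in libraries 3 to 5 was 0.02 ± 0.10 (adjusted p = 0.923), and the difference passed (1.15 ± 0.15, adjusted p = 0.000108). Over all libraries the change of 0.48 ± 0.19 did not pass (adjusted p = 0.122).

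Azin1, the antizyme inhibitor (ENSMUSG00000037458; chr15:38487427-38519266, minus strand, GRCm38), was at 153 and 166 CPM in NAC 1 and NAC 2 and at 165 to 174 CPM in NAC 3 to NAC 5. Control 1 and control 2 stood above, at 198 and 200.5 CPM, and control 3 to control 5 were at 169.7 to 172 CPM. The log2 change was -0.14 ± 0.08 over all libraries (SE; edgeR adjusted p = 0.285), -0.32 ± 0.06 in libraries 1 and 2 (adjusted p = 0.000898), against -0.01 ± 0.05 in libraries 3 to 5 (adjusted p = 0.941). The difference between the sets passed (-0.31 ± 0.08, adjusted p = 0.00974). Altogether the NAC effect differed between the sets for 5 of the 9 genes (Amd1, Smox, Azin1, Oaz1 and Oaz2), against 41.9% of all tested genes.

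The ratio of decarboxylase to antizyme messages was computed from the FPKM values as Odc1 over the sum of Oaz1 and Oaz2. It was 0.867 and 0.884 in NAC 1 and NAC 2 and 1.52, 1.54 and 1.51 in NAC 3 to NAC 5. Control 1 to control 5 had 2.50, 2.07, 1.84, 1.88 and 1.86. All NAC libraries lay below all control libraries, and the sets were ordered in opposite ways in the groups. The lower ratio of libraries 3 to 5 came with a lower Odc1 and a slightly lower Oaz1, while in libraries 1 and 2 Odc1 was lower and both antizyme genes were higher. Odc1 over Azin1 was 7.77 to 10.3 with NAC and 11.9 to 13.6 in control. Sat1 over Smox ran from 5.82 to 11.1 with NAC and from 10.8 to 24.5 in control. These ratios are descriptions of message levels, and no protein or polyamine was measured here.

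**Figure D3:**
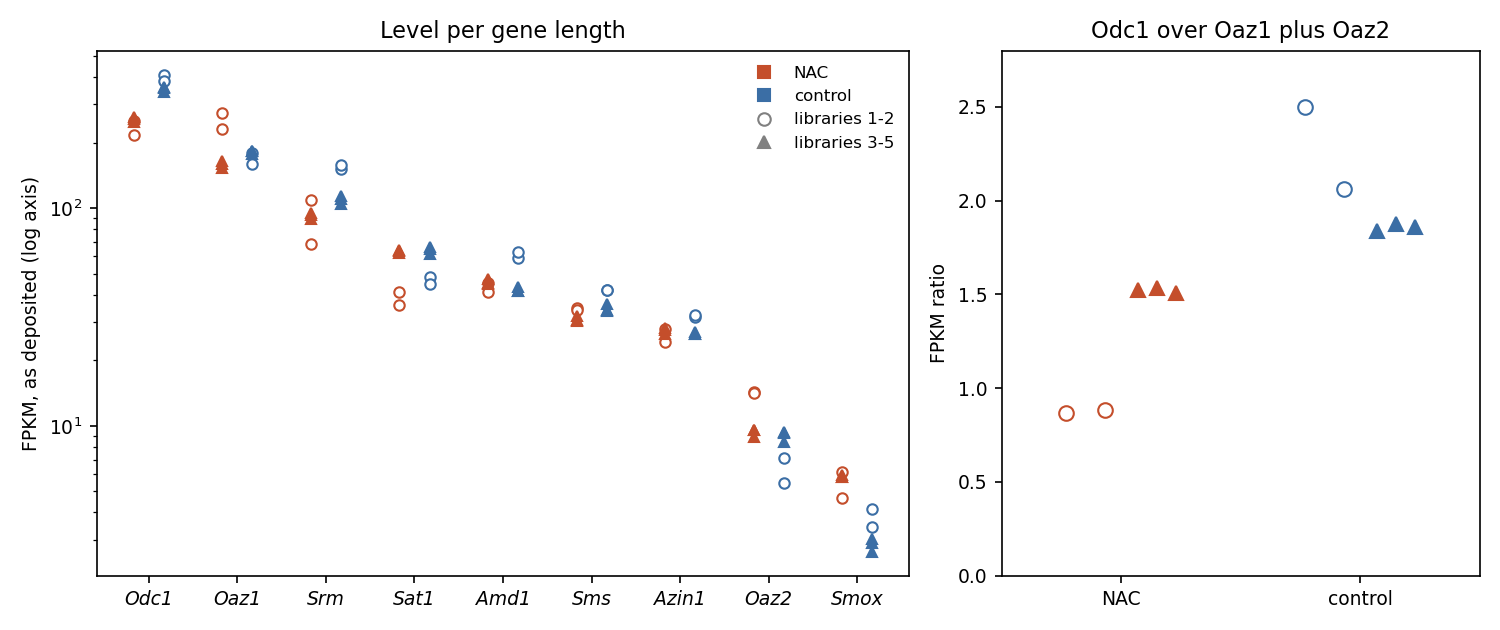
Left, deposited FPKM of the 9 genes in every library on a log axis, NAC left of control for each gene, ordered by mean level; right, Odc1 FPKM over the sum of Oaz1 and Oaz2 FPKM. The NAC libraries lie at 0.867 to 1.54 on the right and the control libraries at 1.84 to 2.50.

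Genes next to this pathway were taken as 6 lists. Their counts over all libraries stand against 11.6% of all tested genes called (6.69% higher, 4.88% lower). Those within the sets stand against 60.5% in libraries 1 and 2 (32.2% higher, 28.3% lower) and 29% in libraries 3 to 5 (15% higher, 14% lower). With 3 to 9 tested genes a list, no count is read as particular to it. Of the arginine and ornithine supply genes, 6 of 10 could be tested and none passed over all libraries, while 3 were higher and 1 lower in libraries 1 and 2, and 1 was higher in libraries 3 to 5. Their median log2 change was 0.02. Arg1 and Arg2, the arginases, were below the filter in all groups, at means of 0.242 and 0.109 CPM with NAC and 0.337 and 0.202 CPM in control. Slc7a1, the cationic amino acid transporter and the most abundant of the list, was at 387 ± 163 CPM with NAC and 497 ± 109.8 CPM in control (SD, n = 5 each; edgeR adjusted p = 0.443). In libraries 1 and 2 it was lower (-0.84 ± 0.10, adjusted p = 8.48e-06), in libraries 3 to 5 it had a change of -0.19 ± 0.08 (adjusted p = 0.0763), and the difference passed (adjusted p = 0.00121). With a term for the library set it passed over all libraries (-0.45, adjusted p = 0.0128).

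Among other polyamine enzyme and antizyme genes, 3 of 6 could be tested and 1 was higher over all libraries, where 6.69% of all tested genes were. The list median was 0.42. Within the sets 2 were higher in libraries 1 and 2 and none passed in libraries 3 to 5, beside 60.5% and 29% of all tested genes called. The gene higher over all libraries was Azin2, a second antizyme inhibitor. It was at 6.52 and 4.51 CPM in NAC 1 and NAC 2, 1.05 to 1.69 CPM in NAC 3 to NAC 5 and 0.383 to 1.29 CPM in the control libraries. Its log2 change was 1.92 ± 0.55 (SE; edgeR adjusted p = 0.0463), with 2.74 in libraries 1 and 2 (adjusted p = 6.46e-05), against 0.80 in libraries 3 to 5 (adjusted p = 0.151). The call ended without any 1 library other than NAC 3 and NAC 4 (adjusted p 0.0534 to 0.1003), with no filter (0.0536) and in limma-voom (0.0976). Of the polyamine transport genes, 5 of 7 could be tested and none passed over all libraries (median 0.24). In libraries 1 and 2, 3 were higher and 1 lower (60.5% of all tested genes were called there), and in libraries 3 to 5, 1 was higher and 1 lower (29%). The most abundant, Slc3a2, a heavy chain shared by amino acid transporters, was at 363 ± 139.7 CPM with NAC and 409.97 ± 182 CPM in control (adjusted p = 0.78). It was lower in libraries 3 to 5 (-0.22 ± 0.07, adjusted p = 0.0298).

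All 4 genes of the hypusine pathway, which moves part of spermidine onto the translation factor eIF5A, could be tested. Of these 1 was lower and none higher, with a median of -0.32, while 2 were lower in libraries 1 and 2 and 1 in libraries 3 to 5. Of all tested genes 4.88% were lower over all libraries, 28.3% in libraries 1 and 2 and 14% in libraries 3 to 5. Eif5a, the factor itself, was at 1344 ± 171 CPM with NAC and 1777 ± 54.5 CPM in control (SD, n = 5 each), with no overlap between the groups. Its log2 change was -0.40 ± 0.10 (SE; edgeR adjusted p = 0.0245), and it was lower in libraries 1 and 2 (-0.35 ± 0.12, adjusted p = 0.0228) as in libraries 3 to 5 (-0.43 ± 0.10, adjusted p = 0.0061). The call over all libraries ended without NAC 4 or NAC 5 or control 2, 3, 4 or 5 (adjusted p 0.0503 to 0.0539) and with upper quartile factors (0.0521).

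Of the methionine cycle and methylthioadenosine salvage genes, 9 of 10 could be tested, 1 was lower and none higher over all libraries (median -0.20). Of all tested genes 4.88% were lower and 6.69% higher over all libraries. In libraries 1 and 2, 2 were higher and 4 lower, close to the 60.5% of all tested genes called there, and in libraries 3 to 5, 1 was higher and 3 lower (29% of all tested genes were called). Enoph1, an enzyme of the salvage path that recycles the by-product of Srm and Sms, was at 28.3 ± 3.8 CPM with NAC and 36.8 ± 2.97 CPM in control (SD, n = 5 each). Its log2 change was -0.38 ± 0.11 (SE; edgeR adjusted p = 0.0446), with -0.36 in libraries 1 and 2 (adjusted p = 0.0117), against -0.39 in libraries 3 to 5 (adjusted p = 0.00637). The call over all libraries ended without any 1 library other than NAC 1 (adjusted p 0.062 to 0.107), with library size as the scale (0.059), with upper quartile factors (0.106) and with the filter of 1 CPM (0.0515).

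In the MYC and MAX network, whose E-box factors are known regulators of Odc1, all 9 genes could be tested. Over all libraries 1 was higher, against 6.69% of all tested genes, with a list median of -0.02. Libraries 1 and 2 had 4 higher and 1 lower, and libraries 3 to 5 had 2 higher, shares below the 60.5% and 29% of all tested genes called. Mxi1, a MAX partner that opposes MYC, was at 32.7, 34, 31.2, 29.3 and 31.7 CPM in NAC 1 to NAC 5 and at 13.5, 11.9, 23, 20.7 and 24.1 CPM in control 1 to control 5. The groups did not overlap, and the control libraries of the first set were lowest. The log2 change was 0.77 ± 0.19 (SE; edgeR adjusted p = 0.0285), with 1.39 in libraries 1 and 2 (adjusted p = 4.1e-07), against 0.44 in libraries 3 to 5 (adjusted p = 0.00229). The call over all libraries ended without NAC 2, NAC 3, NAC 5 or control 1 (adjusted p 0.0527 to 0.0639). Myc, named after its values were seen, was at 382 ± 21.9 CPM with NAC and 387 ± 18.1 CPM in control (SD, n = 5 each; log2 change -0.02 ± 0.07, adjusted p = 0.891).

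**Figure D4:**
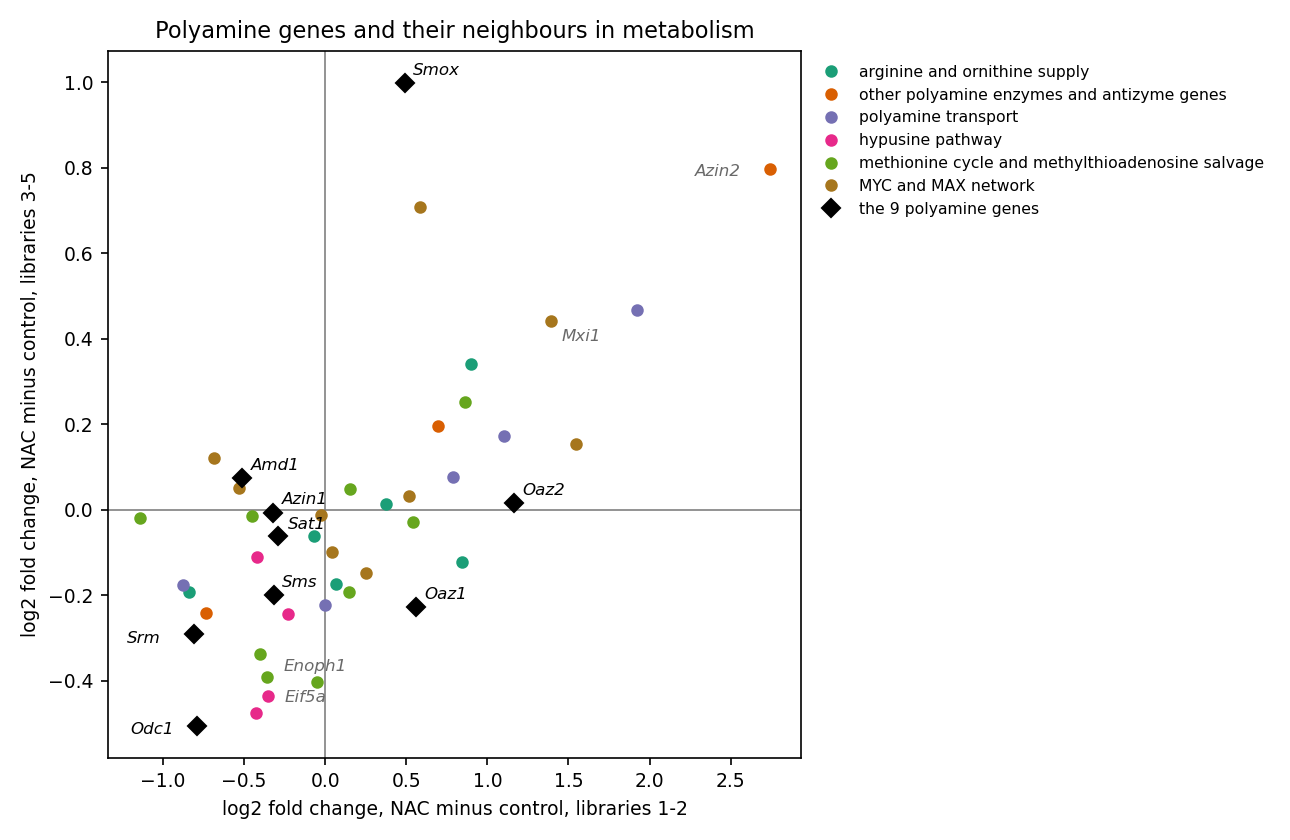
Log2 fold change (NAC minus control) in libraries 1 and 2 against that in libraries 3 to 5 for the 9 polyamine genes (diamonds) and the tested genes of the 6 neighbouring lists (dots). Odc1, Srm, Sms, Sat1 and Azin1 lie below 0 on both axes, as do Eif5a, Enoph1 and other genes of the lists. Sat1 and Azin1 lie near 0 in libraries 3 to 5. Smox lies above 0 on both axes, and Oaz2 lies near 0 in libraries 3 to 5 only.

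The genes with the profile most like Odc1 over the 10 libraries were Abcf2, Wdr18 and Hspd1, out of 8617 tested genes with a mean of at least 10 CPM. Likeness was the root mean square difference of centred log2 CPM, which was 0.0543 for Abcf2, 0.0609 for Wdr18 and 0.0611 for Hspd1, the gene of a mitochondrial chaperonin. Abcf2 was at 141 ± 14.2 CPM with NAC and 219 ± 12.7 CPM in control (SD, n = 5 each). For Sat1 the closest were Dus4l (0.0509), Ier3ip1 (0.0612) and Ppm1a (0.0662). All genes were measured in the same libraries, with the sets and depths of these, so likeness is a description only.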

How the data were processed

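The authors deposited 1 table with a read count and an FPKM value per gene and library, per the file headers. The deposited counts are whole numbers and were used as they stand. The deposited FPKM values were used only to compare levels between genes. Which aligner, counter and annotation they used is not given in the sources used here. GRCm38 and mm10 are builds from the submitters' processing notes, yet 0 of the 9 genes have the start and end of GENCODE M21 (GRCm38) in the table, so positions are from that annotation by Ensembl identifier. Each library began with 1.3 µg of RNA, per the labels' protocols.

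The test was edgeR 4.0.16 in R 4.3.3 (filterByExpr, TMM, robust quasi-likelihood F test, two-sided), with p adjusted by Benjamini-Hochberg over all 11403 tested genes and a threshold of 0.05. The fit over all libraries had no covariate. Changes within libraries 1 and 2 and within 3 to 5, and their difference, came from 1 fit with 4 cells and a shared spread. Its common coefficient of variation was 7.43%, against 26.6% without covariate. The SE was obtained as the absolute log2 change over the root of F. Log2 CPM for likeness used a prior count of 2. Symbols recur in 22 rows, and the one with most reads kept its symbol. Depth covers counting error only. Scripts were tested on simulated counts.

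Same-numbered NAC and control libraries deviated together from their group means (r 0.485 to 0.596 across genes), which passes the 0.1 taken as pairing, but other numbers of the same set did so too (0.468 to 0.583). The labels give no further ground for pairing.

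The members, lists and library sets were chosen with earlier results of these data known. The rule for naming took all 9 genes and, of each list, the called gene with the smallest adjusted p in each direction or else the most abundant tested gene. It also took the 3 genes most like Odc1 and Sat1. Alternatives used DESeq2 1.42.0, limma-voom (limma 3.58.1), other scalings and filters, a block, a set term and libraries left out.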

Additional observations from a re-analysis of the deposited data

Results flagged for a closer look

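For 2 of the 9 genes, 1 NAC library lay far from the other 4. Odc1 in NAC 2 was at 703 CPM, below the other NAC libraries, and Smox in NAC 1 was at 18.3 CPM, below the other NAC libraries. Chance alone marks about 1 in 20 groups of 5 in this way, and 18 groups were examined.

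The NAC effect differed between libraries 1 and 2 and libraries 3 to 5 for 5 of the 9 genes, against 41.9% of all tested genes, by the test of the difference (log2 change in libraries 1 and 2 minus that in 3 to 5, edgeR). The difference was -0.59 for Amd1, -0.51 for Smox, -0.31 for Azin1, 0.79 for Oaz1 and 1.15 for Oaz2. In the same libraries Cd4 stood at 464 CPM or more in all 4 libraries numbered 1 and 2 and at no more than 2.76 CPM in the 6 others. The part of this in the differences was not tested.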

How the results depend on the processing

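Odc1 and Smox kept their direction and their call over all libraries under every alternative run, with log2 changes of -0.65 to -0.56 and 0.73 to 0.88 when 1 library was left out. With the library number as a block, 3 of the 9 genes were lower, Srm and Sms being added, as with a set term and in DESeq2's Wald test; the block changed no other call of the 9 genes. The number lower was 1 to 2 with 1 library left out, 2 without NAC 1, and the number higher stayed at 1. All tested genes gave 1317 higher and 937 lower calls with the block, 2287 and 1868 with the set term, and 1243 and 1044 in DESeq2. Upper quartile factors gave 350 lower calls and shifted the median change of all genes by 0.10 in libraries 1 and 2. With 1 library left out, calls ran from 412 to 725 higher, fewest without NAC 2 (412) and control 2 (418) or 1 (425), and from 213 to 680 lower, with 364 or fewer without any library other than NAC 1.

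In libraries 3 to 5, the 3 genes lower became 1 with upper quartile factors and 1 to 4 with 1 library left out, 1 without NAC 3, NAC 5 or control 4. In libraries 1 and 2 the counts ran from 2 to 3 higher and from 5 to 6 lower, and the genes whose effect differed between sets from 4 to 8, 8 without NAC 1. Where this left 1 library in an arm, it was assumed to vary like the others, so calls from those fits do not measure the spread of that arm.

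Changes of sign were of values near 0. Azin1 in libraries 3 to 5 was at 0.0364 with library size and 0.0385 with upper quartile factors, and ran from -0.0219 to 0.0173 with 1 library left out. Oaz2 there ran from -0.0328 to 0.0509, and Oaz1 over all libraries from -0.0394 to 0.198, below 0 without NAC 1. Myc was at 0.0163 with library size and 0.0498 with upper quartile factors and ran from -0.038 to 0.0152. For Smox, 150 to 401 reads a library limit the precision.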

Other observations

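The methionine cycle and salvage genes described here were named after their values were seen. Mtap, which cleaves the methylthioadenosine left by Srm and Sms, was at 90.1 ± 12.9 CPM with NAC and 116 ± 15.8 CPM in control (SD, n = 5 each). Its log2 change of -0.37 ± 0.12 did not pass over all libraries (SE; edgeR adjusted p = 0.0715), but it was lower in both sets, by -0.40 in libraries 1 and 2 (adjusted p = 0.00203) and -0.34 in 3 to 5 (adjusted p = 0.00544). Mat2a, which makes S-adenosylmethionine, was lower with NAC in libraries 1 and 2 (-1.14 ± 0.07, adjusted p = 7.31e-08), with a change of -0.02 ± 0.06 in libraries 3 to 5 (adjusted p = 0.848). Ahcy, which removes S-adenosylhomocysteine, was lower in libraries 3 to 5 (-0.40 ± 0.06, adjusted p = 0.000443), with -0.05 ± 0.07 in libraries 1 and 2 (adjusted p = 0.565). The sets differed for Mat2a and Ahcy by the test of the difference (adjusted p = 4.11e-06 for Mat2a and 0.0108 for Ahcy).

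Paox, a second polyamine oxidase that acts on acetylated polyamines, was at 33.6 ± 7.52 CPM with NAC and 25.1 ± 1.44 CPM in control (SD, n = 5 each; edgeR adjusted p = 0.0795). It was higher with NAC in libraries 1 and 2 (0.70 ± 0.11, adjusted p = 0.000142) and had a change of 0.20 ± 0.09 in libraries 3 to 5 (adjusted p = 0.133); the difference passed (adjusted p = 0.0148).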
